A study of Mus musculus with 57 samples.

Results

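The chromatin around a pair of mouse genes, Tbx6 and Msgn1, was described across every ChIP-seq and ATAC-seq library of a study on Wnt-stimulated epiblast stem cells (EpiSCs) and early embryos. Members were the regions of the deposited peak lists that overlapped a window of 55 kb holding Tbx6 on chromosome 7 (genome build mm9) or a window of 85 kb holding Msgn1 on chromosome 12. The windows hold 137 and 54 regions, that is 191 of the 591254 regions in the 30 lists other than inputs. The genes were chosen by the chromatin marks already seen at them in these same lists, so the values in the windows are a description and support nothing by themselves. Overlapping regions of all these lists were joined into elements, numbered along the chromosome: 7 elements (T1 to T7) in the Tbx6 window and 11 (M1 to M11) in the Msgn1 window. Tbx6 was placed at about 133.925 Mb and Msgn1 at about 11.21 Mb. The element nearest the position of Tbx6 was T3 (chr7:133923259-133926939), which covers it. The element nearest the position of Msgn1 was M6 (chr12:11213116-11217483), which starts 3116 bp from it. No annotation of mm9 was used here, so exons, introns and promoters were not assigned to elements, and other genes in the windows were not placed. In the RefSeq gene order of GRCm38.p6, Tbx6 follows Ypel3 and precedes Ppp4c, and Msgn1 follows 9530020I12Rik and precedes Gen1.

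EpiSCs are pluripotent cells derived from the epiblast of embryos, here from E6.0 explants grown with Fgf, Activin A and 2 µM IWP2, which blocks the secretion of Wnt proteins. For stimulation, IWP2 was withdrawn and 3 µM CHIR99021 (named Chiron in the sample titles), an inhibitor of the kinase GSK3 and so an activator of Wnt signalling, or 125 ng/mL Wnt3a was added. The ChIP-seq time course was made in Wnt3KO EpiSCs, whose label names the Wnt3 gene as knocked out and gives no further detail of the line: H3K4me3 and H3K27ac at 0, 6, 12 and 72 h of CHIR99021, H3K27me3 at 0 (2 libraries), 6, 12 and 72 h of CHIR99021 and at 5 h of Wnt3a, and Ring1b at 0 h (2 libraries), 72 h of CHIR99021 and 5 h of Wnt3a. For H3K27ac there are wild-type EpiSCs too, at 0 h and at 24 h of CHIR99021 (2 libraries). ATAC-seq was made only in wild type, in EpiSCs at 0 h and at 48 h of CHIR99021 and in embryos. The embryo libraries were of E6.0 (2 libraries), E7.2 (2 libraries) and the posterior part at E7.5 (1 library). The E7.5 title gives no number of embryos. The 0 h cells are labelled as unstimulated for H3K4me3 and H3K27ac in Wnt3KO, and as grown with IWP2 elsewhere. A pair of wild-type H3K4me3 libraries, whose labels contradict each other, entered no comparison. The labels do not say whether libraries of a group came from separate cultures or litters, so their spread may be technical.

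Tbx6 is a T-box transcription factor and Msgn1 (mesogenin 1) a basic helix-loop-helix transcription factor of the presomitic mesoderm, the tissue that forms the somites, and both are known as targets of Wnt signalling. H3K4me3 marks active or poised promoters, H3K27ac marks active promoters and enhancers, and ATAC-seq reads out open chromatin. H3K27me3 is laid down by Polycomb repressive complex 2, Ring1b is the ubiquitin ligase of Polycomb repressive complex 1, and together they mark many silent developmental genes in pluripotent cells.

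The sequence before each gene's annotated start is shown because the marks described next lie at or near the positions of these genes, and because the pair differs in the Wnt-related motif. The sequences are those of RefSeq in GRCm38.p6, not of mm9, and were not placed in the elements. That of Tbx6 (chr7:126781233-126781482, plus strand) ends at the base before its start, and its capitals mark TATAAA. That of Msgn1 (chr12:11208999-11209198, minus strand) is 200 of the 250 bases searched, without those nearest the start, because its RefSeq model of 567 bp holds only the coding length. Its capitals mark CTTTGAT, a Tcf/Lef motif, read on the opposite strand.
Tbx6: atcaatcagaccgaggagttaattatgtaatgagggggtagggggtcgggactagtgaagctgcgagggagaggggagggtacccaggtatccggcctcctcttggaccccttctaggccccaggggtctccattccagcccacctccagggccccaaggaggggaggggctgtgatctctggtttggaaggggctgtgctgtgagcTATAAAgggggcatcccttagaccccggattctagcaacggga
Msgn1: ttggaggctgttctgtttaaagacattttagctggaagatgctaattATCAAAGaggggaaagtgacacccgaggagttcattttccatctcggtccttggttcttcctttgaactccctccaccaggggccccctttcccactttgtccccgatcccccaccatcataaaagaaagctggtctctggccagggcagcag
Both strands of the 250 bases were searched for CTTTGAT and CTTTGTT (Tcf/Lef), AGGTGTGA (T-box), CACGTG (an E-box) and TATAAA, the last added after the sequences were seen. These motifs do not overlap each other in the sequences shown. Msgn1 held CTTTGAT at 203 to 197 bases before the start, a motif found in 3.21% of 32851 promoters of this length. Tbx6 held TATAAA at 43 to 38 bases before the start, a motif found in 12.4% of promoters. The other motifs, found in 5.03% (CTTTGTT), 1.12% (AGGTGTGA) and 6.02% (CACGTG) of promoters, were not in these letters of either gene. Tbx6 had 6 CG dinucleotides, the median of all promoters, and Msgn1 had 4. For Msgn1 the start is that of the coding length, so its motif distance and CG count may not compare with those of other promoters. Of a list of 18 paraxial mesoderm and presomitic genes, 12 had a promoter in the table (16 promoters). CTTTGAT was in that of Mesp1, CACGTG in those of Lef1 and Lfng, and TATAAA in that of Lef1, and CTTTGTT and AGGTGTGA were in none of the 16. Their CG counts ran from 2 to 41 with a median of 13.5, and 3 of the 16 had no more than Tbx6.

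The lists held 253 to 72433 peaks each and no read counts, so sequencing depth is unknown, and a region that is not listed has no upper limit. Peak names put the lists in 7 processing folders, and the 6 and 12 h libraries of the time course came from another folder than those at 0 and 72 h of H3K4me3 and H3K27ac. Fold enrichment is the value of the authors' peak caller at the summit over local background, and it is given to describe regions, not to compare lists. The 2 input lists held no region in either window.

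Polycomb marks were not listed over either gene before stimulation. None of the 4 lists of 0 h cells, 2 for H3K27me3 with 4332 and 6236 peaks and 2 for Ring1b with 1605 and 1783 peaks, had a region in the Tbx6 or the Msgn1 window. The H3K27me3 lists at 5 h of Wnt3a and at 6, 12 and 72 h of CHIR99021, and the Ring1b list at 72 h, had none either. In this order they held 1012, 2572, 3056, 3150 and 604 peaks, fewer than the 0 h lists of their mark. With 0 kb covered at 0 h and 0 kb at 72 h, a loss of Polycomb marks from these windows could not be observed in the lists.

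At 0 h and under CHIR99021 the nearest Polycomb regions lay outside the windows. The H3K27me3 region closest to T3 was 64.8 and 64.6 kb away in the 2 lists at 0 h and 65.0 kb away at 72 h. It was not listed at 6 or 12 h, when the closest were 665 and 255 kb away. Those lists were shorter than the 0 h lists and came from another folder. The part of either in the result was not tested. On the Msgn1 side, the H3K27me3 region closest to M6 was 53.8 and 55.1 kb away at 0 h, 57.5 kb at 6 h, 57.6 kb at 12 h and 55.3 kb at 72 h. So H3K27me3 regions at this distance from M6 were listed at every CHIR99021 time. Ring1b regions were 4758 kb from T3 and 1624 kb from M6 in both lists at 0 h, and 985 and 1630 kb away at 72 h. At 5 h of Wnt3a the closest H3K27me3 regions were 4153 kb from T3 and 1626 kb from M6. This list was the shortest of H3K27me3, with 1012 peaks. The closest Ring1b regions at 5 h of Wnt3a were 25.5 kb from T3, inside the window, and 1625 kb from M6.

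That Ring1b region at 5 h of Wnt3a, the single Polycomb region in the windows, lay in T7, the element at the far end of the Tbx6 window (chr7:133952443-133952853, 3.92-fold, −log10 p 6.49). It was among the weakest of its list, at rank 2241 of 2244 by p-value. Of all Ring1b regions at 5 h of Wnt3a, 34.1% were in neither 0 h list. The H3K27me3 list at the same time had no region there. T7 carried H3K4me3 in all 4 lists of the Wnt3KO time course, at 864, 706, 957 and 785 bp at 0, 6, 12 and 72 h. H3K27ac was listed in T7 in wild-type cells at 0 h and in both libraries at 24 h, and at no time in Wnt3KO cells.

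**Figure D1:**
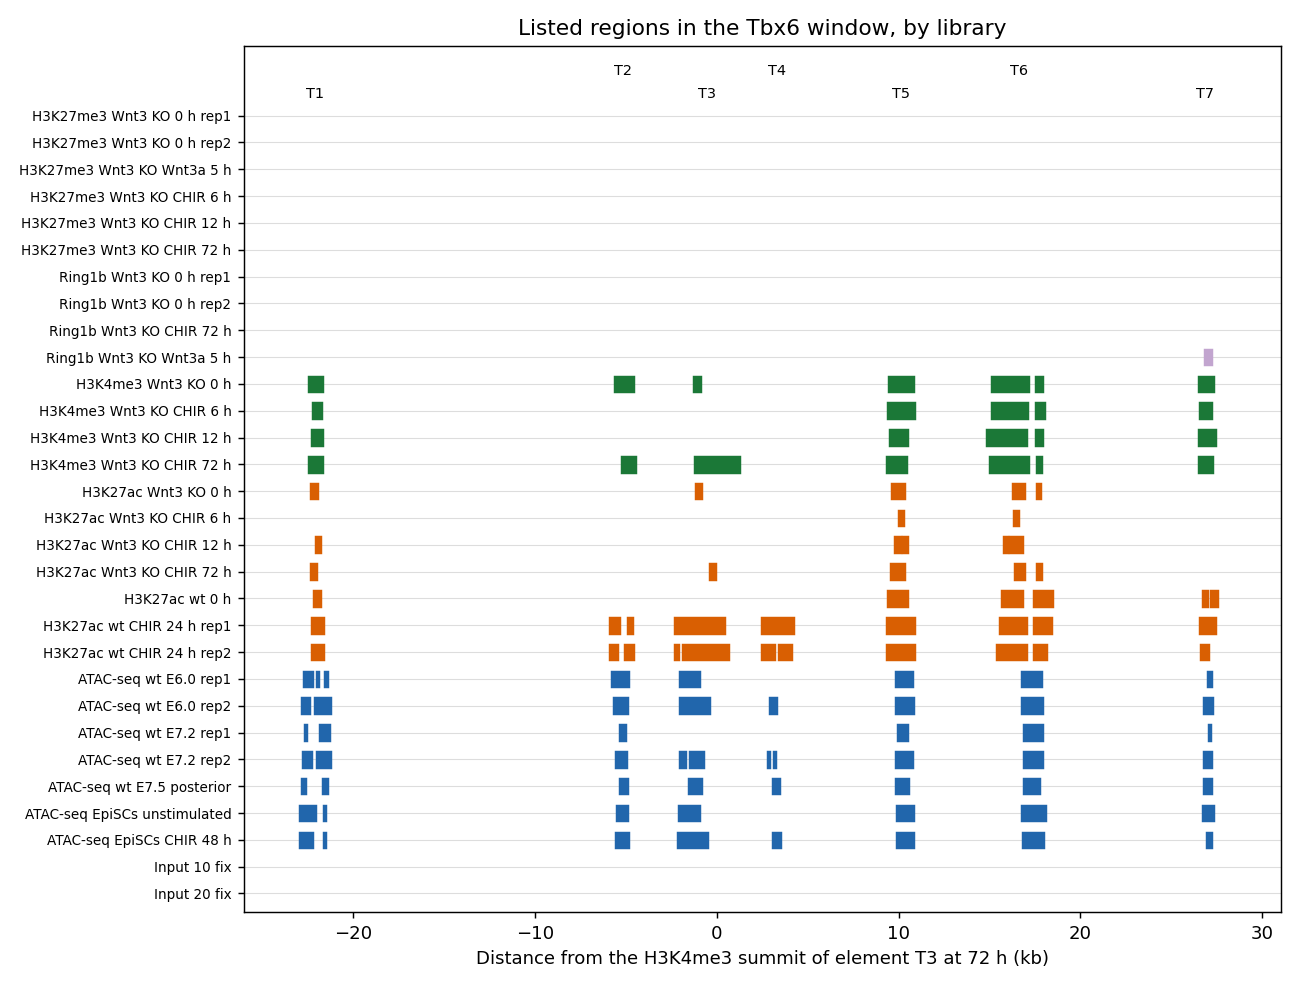
Regions in the Tbx6 window of each list except the wild-type H3K4me3 pair with contradictory labels, plotted by distance (kb) from the H3K4me3 summit of T3 at 72 h, with 1 row per library and colours for each mark or assay. The rows of H3K27me3 are empty, Ring1b has 1 region at 5 h of Wnt3a, and the H3K4me3 region of T3 is 417 bp at 0 h and 2542 bp at 72 h.

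At the position of Tbx6, H3K4me3 was narrow before stimulation and broad after 72 h of CHIR99021. In T3 the region was 417 bp at 0 h (chr7:133924336-133924752, 5.14-fold) and 2542 bp at 72 h (chr7:133924398-133926939, 8.54-fold), and no region was listed at 6 or 12 h. The summit at 72 h lay 1096 bp from that at 0 h, toward higher coordinates. The width ratio of 6.10 exceeded that of 99.98% of the 15626 regions listed at both times, whose median ratio was 1.02. A ratio of at least 3 was seen in 0.173% of them (27 regions), T3 included. The other regions of the Tbx6 window had ratios from 0.770 to 1.05. The 0 h region of T3 was weak in its list, where 3.02% of regions had a lower fold enrichment and 7.08% were shorter. Each time had 1 library, from the same folder at 0 and 72 h, so no replicate check exists.

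The neighbouring T2 (chr7:133919695-133921289) also carried H3K4me3 at both ends of the time course and not in the middle. Its region was 1077 bp (9.07-fold) at 0 h, was not listed at 6 or 12 h, and was 832 bp (6.93-fold) at 72 h. T2 and T3 were thus the 2 of 7 regions of 0 h that were not listed at either 6 or 12 h, beside 8.59% of all H3K4me3 regions. Both were low in the 0 h list, where 17.6% of regions had a lower fold enrichment than T2 and 3.02% than T3. The 6 and 12 h lists came from another folder, and the part of that difference in the result was not tested. T1, T5, T6 and T7 had H3K4me3 in all 4 lists. The H3K4me3 regions of the whole window covered 7.2 kb at 0 h, 5.37 kb at 6 h, 5.30 kb at 12 h and 8.67 kb at 72 h, an increase of 1.46 kb from 0 to 72 h. None of the 7 regions at 72 h was without a counterpart at 0 h, beside 6.69% of all H3K4me3 regions at 72 h, and none of the 7 at 0 h was without a counterpart at 72 h, beside 4.83%. T4 had no H3K4me3 region in any list.

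In the Msgn1 window H3K4me3 was listed at 72 h alone among the 4 times of the Wnt3KO course. No region was listed at 0, 6 or 12 h. At 72 h a single region of 2832 bp covered most of M6 (chr12:11213116-11215947, 20.4-fold, −log10 p 61.3). It was 1 of the 1120 H3K4me3 regions of 72 h with no overlap at 0 h, whose median length was 415.5 bp and median fold enrichment 5.82. Among them it ranked 1 by fold enrichment, 3 by p-value and 3 by length. Among all 16746 regions of 72 h it was near the middle, at rank 8329 by fold enrichment and 9875 by p-value. Of the 1120 regions, 180 (16.1%) overlapped a Ring1b or H3K27me3 region at 0 h. The Msgn1 region was not among these, nor were the 2 longer ones. T3 at Tbx6 differed in that a narrow region was already listed at 0 h.

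**Figure D2:**
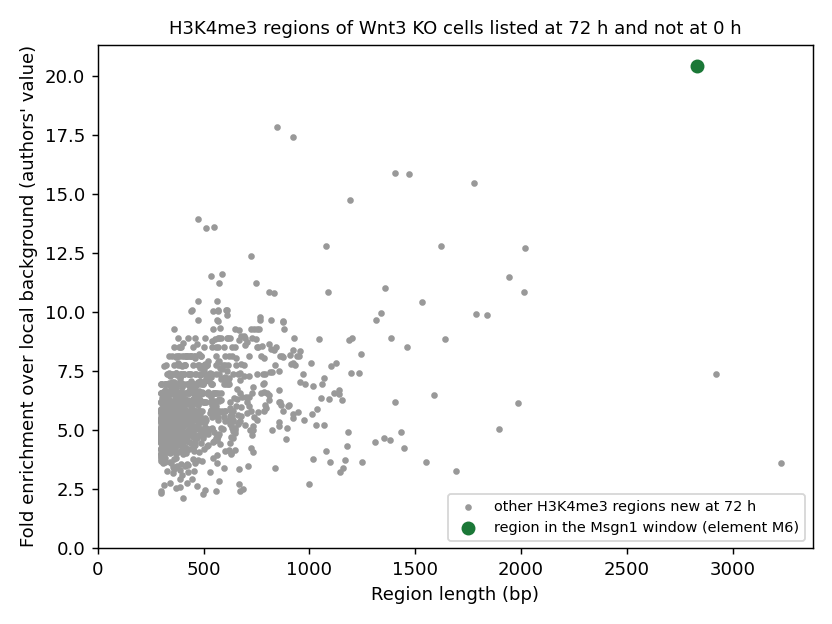
Length (bp) against fold enrichment (the authors' value) of the 1120 H3K4me3 regions of Wnt3KO cells listed at 72 h and not at 0 h, 1 point per region. The Msgn1 region, at 2832 bp and 20.4-fold, stands above all others in fold enrichment, and 2 regions are longer.

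H3K27ac in Wnt3KO cells was sparse around Tbx6 and not listed around Msgn1. In T3 a region of 352 bp (chr7:133924452-133924803, 3.84-fold) was listed at 0 h, none at 6 or 12 h, and a region of 374 bp (chr7:133925220-133925593, 4.25-fold) at 72 h. These regions did not overlap: 416 bp separated them, and the summit at 72 h lay 782 bp from that at 0 h, in the same direction as for H3K4me3. The 0 h region is weak, with a −log10 q of 4.23. T3 thus made up the 1 of 5 regions of 72 h with no overlap at 0 h (17.4% of all H3K27ac regions of 72 h) and the 1 of 5 of 0 h with no overlap at 72 h (30.4%). T1 (chr7:133902652-133904439) had H3K27ac of 459 bp (6.11-fold) at 0 h, none at 6 h, 342 bp (5.87-fold) at 12 h and 415 bp (4.58-fold) at 72 h. Of the 5 regions of 0 h, 3 had no overlap at 6 h and 2 none at 12 h, beside 40% and 31.9% of all regions. T2, T4 and T7 had no H3K27ac in Wnt3KO cells at any time, and T5 and T6 had it at all 4.

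The covered length of H3K27ac in the Tbx6 window was 2.56 kb at 0 h, 0.678 kb at 6 h, 2.14 kb at 12 h and 2.60 kb at 72 h. The values at 0 and 72 h, which share a folder, differed by 0.039 kb, less than the SD of 0.400 kb between the wild-type libraries at 24 h. When the 0 h list was limited to the length of the shortest H3K27ac list, the difference was 1.38 kb. In the Msgn1 window no H3K27ac region was listed in Wnt3KO cells at 0, 6, 12 or 72 h, although H3K4me3 covered 2.83 kb there at 72 h.

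In wild-type cells listed H3K27ac regions covered more of both windows at 24 h of CHIR99021 than at 0 h. The Tbx6 window had 4.60 kb at 0 h in 6 regions, against 11.3 and 10.8 kb at 24 h in 9 and 11 regions, a mean of 11.0 ± 0.400 kb (SD, n = 2). The Msgn1 window had none at 0 h, against 2.66 and 3.43 kb at 24 h, a mean of 3.05 ± 0.544 kb (SD, n = 2). Both 24 h libraries lay above the 0 h library in each window. The differences of 6.45 and 3.05 kb were larger than the spread between the replicates. With 1 library at 0 h there was no test, and the 0 and 24 h libraries came from separate folders and lists of 14453 against 29056 and 27422 peaks, so time and folder cannot be told apart. The median region of the whole list was also longer at 24 h, 716 and 708 bp against 602 bp at 0 h. Whether the windows gained more than the lists as a whole was not tested. With lists of equal length the differences were 5.44 kb for Tbx6 and 0.939 kb for Msgn1.

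The new H3K27ac of the Tbx6 window lay in T2, T3 and T4. T4 (chr7:133928048-133929869), which starts 3048 bp from the position of Tbx6, held no region at 0 h, a region of 1822 bp (9.29-fold) in replicate 1 and regions of 720 bp (9.91-fold) and 812 bp (5.27-fold) in replicate 2. T4 ranked 1147 by fold enrichment among the 14350 regions listed in both 24 h libraries and not at 0 h. T3 held no region at 0 h, a region of 2826 bp (6.26-fold) in replicate 1 and regions of 318 bp (2.99-fold) and 2563 bp (6.60-fold) in replicate 2. The T3 region of replicate 1 was longer than 99.5% of those 14350 regions. T2 held 2 weak regions in each replicate (2.52- to 3.09-fold), which were not in the lists of equal length. In all, 4 of 9 and 6 of 11 regions of the Tbx6 window had no overlap at 0 h, below the 64.7% and 62.8% of all regions in replicates 1 and 2. The 4 of replicate 1 were also listed in replicate 2. Of the 18799 new regions of replicate 1, 14350 were listed in replicate 2 too, and these made up 49.4% of all regions of replicate 1. Of the 6 regions of 0 h none was missing from both 24 h lists, beside 14.5% of all. T1, T5, T6 and T7 were listed at 0 and 24 h. In Wnt3KO cells at 72 h the H3K27ac region of T3 was 374 bp and T4 had none; genotype, time and folder all differ from the wild-type libraries.

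In the Msgn1 window, 5 of 5 and 3 of 3 H3K27ac regions of 24 h had no overlap at 0 h, beside 64.7% and 62.8% of all regions, and they fell in M1 and M6. M6 held a main region of 1019 bp (8.10-fold) in replicate 1 and 859 bp (7.90-fold) in replicate 2. Weaker regions (3.54- to 4.49-fold) lay beside it in both. M1 (chr12:11184077-11186072), which ends 23928 bp from the position of Msgn1, held regions of 552 bp (6.91-fold) and 432 bp (4.14-fold) in replicate 1 and of 1318 bp (6.02-fold) in replicate 2. The main M6 region of replicate 1 had a higher fold enrichment than 87.2% of the 14350 regions new in both libraries, and the stronger M1 region than 79.5%. The M1 regions were not in the lists of equal length.

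**Figure D3:**
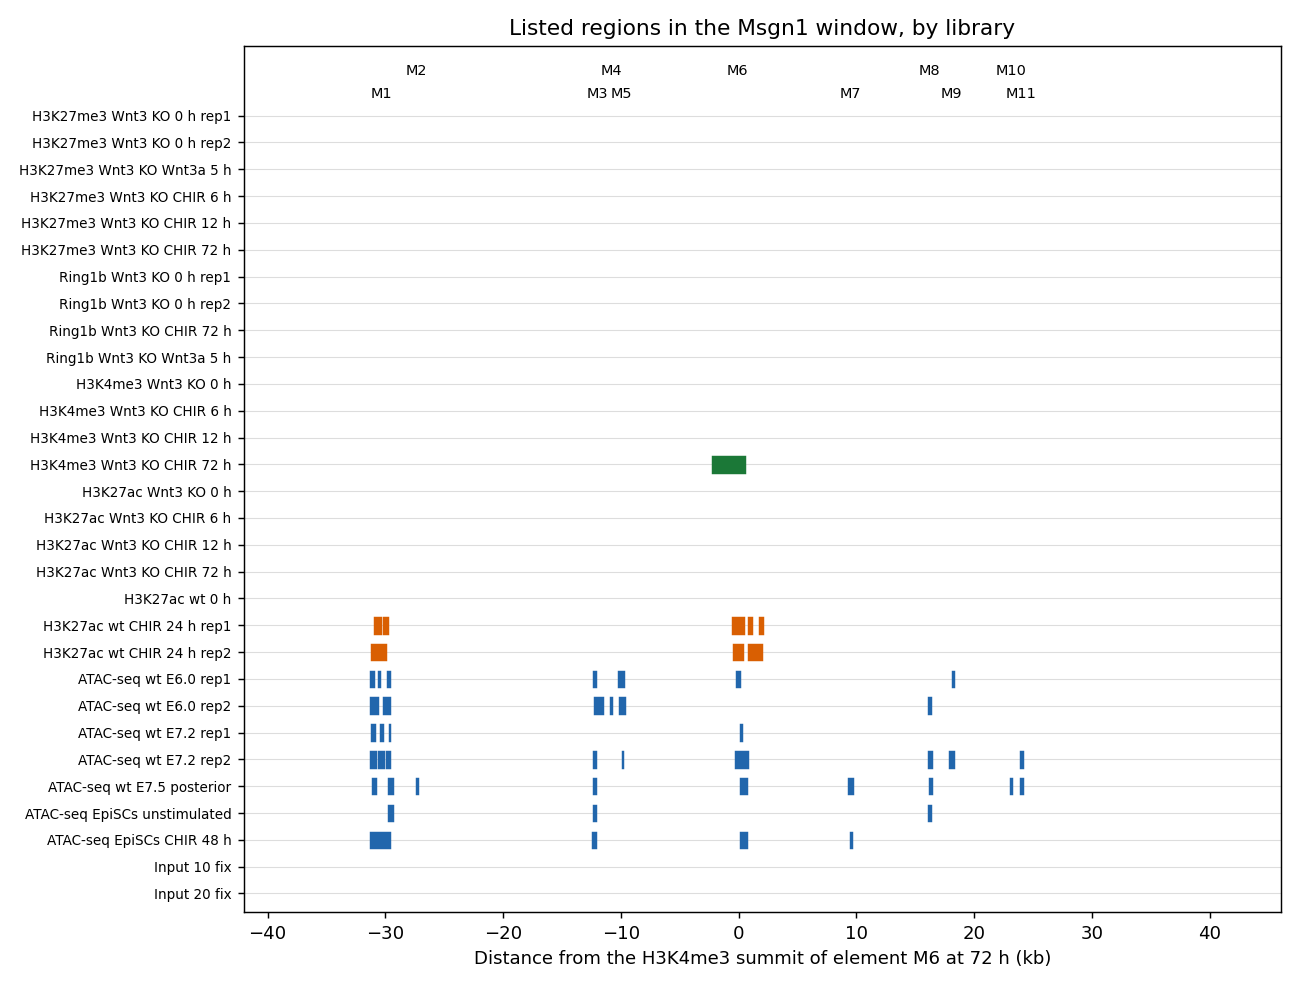
Regions in the Msgn1 window of each list except the wild-type H3K4me3 pair with contradictory labels, plotted by distance (kb) from the H3K4me3 summit of M6 at 72 h, with 1 row per library and colours for each mark or assay. Rows of H3K27me3 and Ring1b are empty, H3K4me3 has a single region at 72 h, and H3K27ac is seen only in the 2 wild-type libraries at 24 h, in M1 and M6.

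Open chromatin at Tbx6 was already listed in unstimulated cells, except at T4. In EpiSCs T4 had no ATAC-seq region at 0 h and a region of 504 bp (10.4-fold) at 48 h of CHIR99021, with a higher fold enrichment than 86.8% of the 10443 regions of 48 h that were new. In the posterior E7.5 library T4 had a region of 416 bp (4.67-fold), whose summit was 131 bp from that of the 48 h EpiSCs. T4 was also listed in replicate 2 of E6.0 (488 bp, 3.59-fold) and of E7.2 (164 and 176 bp, 3.01- and 3.63-fold), and in neither replicate 1. With lists of equal length T4 was listed in no E6.0 or E7.2 library, and its listings at 48 h and E7.5 were unaffected. The embryo libraries that share a number also share a folder, so T4 was listed at E6.0 and E7.2 only in the folder that holds the 48 h EpiSCs. T3 had a region in 6 of the 7 ATAC-seq lists, 1238 bp (6.91-fold) at 0 h and 1689 bp (8.86-fold) at 48 h in EpiSCs, and none in replicate 1 of E7.2, the shortest ATAC-seq list with 33881 peaks. T1, T2, T5, T6 and T7 were listed in all 7. Of the 8 regions of 48 h in this window 1 was new, beside 27.5% of all ATAC-seq regions, and of the 7 regions of 0 h none was missing at 48 h, beside 33.8%.

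Of the 11 elements of the Msgn1 window, 9 were listed in ATAC-seq alone, 3 of them in 1 library. M6 had no ATAC-seq region in EpiSCs at 0 h and 1 of 594 bp (9.95-fold) at 48 h. In the posterior E7.5 library its region was 590 bp (8.85-fold), with a summit 54 bp from that of the 48 h EpiSCs. Earlier embryos were uneven: 366 bp (4.70-fold) in replicate 1 of E6.0, none in replicate 2, 152 bp (3.40-fold) in replicate 1 of E7.2 and 1143 bp (5.85-fold) in replicate 2. M6 was thus listed in 1 of 2 libraries at E6.0 and in both at E7.2, mostly at low enrichment. With lists of equal length M6 was listed in neither E6.0 library and in replicate 1 alone of E7.2, the listing that is lost at a −log10 q of 5 (its −log10 q is 4.04).

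M7 (chr12:11224671-11225132) shared the pattern of M6 in EpiSCs. It was listed at 48 h (200 bp, 4.10-fold) and at E7.5 (462 bp, 6.12-fold) and in no other library. With lists of equal length its region at 48 h was not listed. M6 and M7 were the 2 of 4 regions of 48 h that were new, beside 27.5% of all ATAC-seq regions. Both were also listed in the posterior E7.5 library, as T4 was. Of the 10443 new regions of 48 h, 4561 were listed at E7.5 too, and these made up 12% of all regions of 48 h. M8 (chr12:11231476-11231805) went the other way in EpiSCs, with a weak region at 0 h (272 bp, 4.07-fold, −log10 q 4.42) and none at 48 h. That region was lost both at a −log10 q of 5 and with lists of equal length, which leaves no difference. In embryos M8 was listed in replicate 2 of E6.0 and of E7.2 and at E7.5. M1 was listed in all 7 libraries, at 401 bp in EpiSCs at 0 h and 1696 bp at 48 h, and M3 in 6 of 7.

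Further elements of the Msgn1 window differed between embryo lists. The E7.5 list is 1 library of the posterior part, and the titles of E6.0 and E7.2 name no part. Stage and part therefore cannot be told apart in comparisons with E7.5. M11 (chr12:11239268-11239545) was listed at E7.5 (278 bp, 10.6-fold) and in replicate 2 of E7.2 (227 bp, 4.43-fold), and in no E6.0 or EpiSC library. M2 (chr12:11187980-11188185, 4.62-fold) and M10 (chr12:11238407-11238621, 5.72-fold) were listed at E7.5 alone. With M7 and M11 they made up the 4 of 9 regions of E7.5 in neither E6.0 library, beside 33.5% of all regions of E7.5. In the Tbx6 window this number was 0 of 8. Against the E6.0 library of its own folder, the E7.5 list had 5 of 9 new regions for Msgn1 and 1 of 8 for Tbx6, T4, beside 37.7% of all. M5 (chr12:11205158-11205733) was listed in both E6.0 libraries (7.93- and 7.91-fold) and in replicate 2 of E7.2 (5.04-fold) but not at E7.5 or in EpiSCs. M5 and a region within M1 were the 2 of 7 regions of replicate 1 of E6.0 that were shared with replicate 2 and missing at E7.5. In the Tbx6 window this held for 1 of 8 regions, within T1, beside 36.2% of all regions.

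ATAC-seq coverage was also summed over each window. In the Tbx6 window it was 5.48 and 7.18 kb at E6.0 (6.33 ± 1.20 kb, SD, n = 2), 3.02 and 6.24 kb at E7.2 (4.63 ± 2.28 kb, SD, n = 2) and 4.50 kb at E7.5. The stages overlapped, and the difference of −1.69 kb gave p = 0.667 in an exact two-sided permutation test, which cannot go below 0.333 with 2 libraries against 2. Such a test can make no call here, on windows chosen from these lists, and it shows neither a difference nor its absence. Within folders the difference was −2.45 and −0.936 kb. In the Msgn1 window coverage was 2.30 and 2.98 kb at E6.0 (2.64 ± 0.482 kb, SD, n = 2), 0.943 and 3.95 kb at E7.2 (2.44 ± 2.12 kb, SD, n = 2) and 2.88 kb at E7.5. The difference of −0.196 kb gave p = 1 in the same exact test, and within folders it was −1.36 and 0.965 kb, of opposite sign. With lists of equal length the Msgn1 difference was −0.642 kb (means of 1.08 kb at E7.2 and 1.72 kb at E6.0), and both E7.2 libraries then lay below both E6.0 libraries (exact p = 0.333, the smallest possible). Without replicate 1 of E7.2 the differences were −0.0845 kb for Tbx6 and 1.31 kb for Msgn1, and without replicate 2 they were −3.30 and −1.70 kb. Without replicate 2 of E6.0 they were −0.843 and 0.146 kb, and without its replicate 1 −2.55 and −0.537 kb. In EpiSCs coverage went from 6.00 kb at 0 h to 6.44 kb at 48 h for Tbx6, a difference of 0.438 kb that is below the SD at E6.0. For Msgn1 it went from 0.993 to 2.80 kb. The difference of 1.81 kb is above the SD at E6.0 (0.482 kb) and below that at E7.2 (2.12 kb), both SDs of embryo libraries. M1, listed at both times, went from 401 to 1696 bp, and M6 and M7 went from none to 594 and 200 bp. M3 went from 320 to 314 bp and M8 from 272 bp to none. The 0 and 48 h libraries came from separate folders, so time and folder cannot be told apart.

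**Figure D4:**
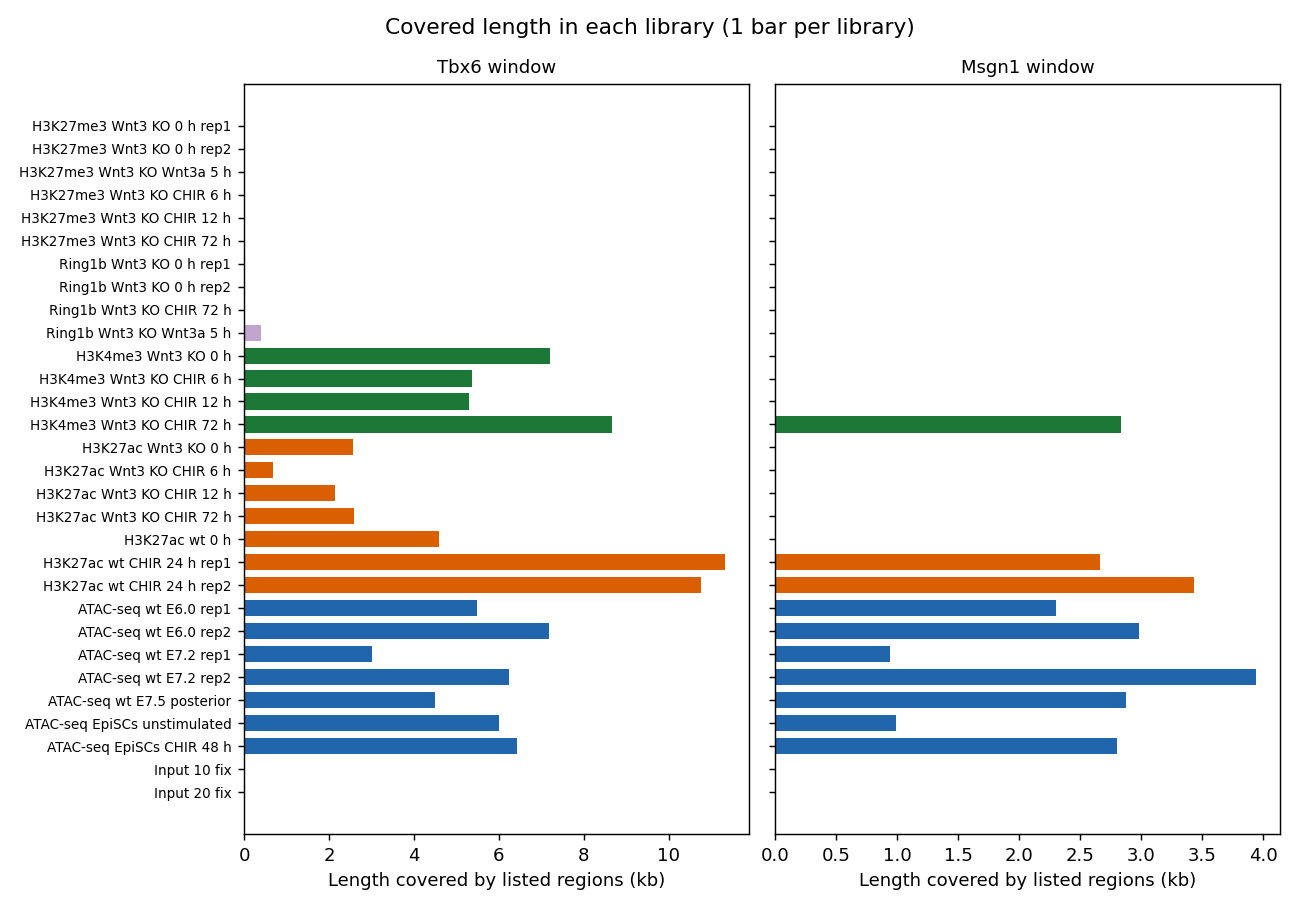
Length (kb) covered by listed regions in each library except the wild-type H3K4me3 pair with contradictory labels, with 1 bar per library, for the Tbx6 window (left) and the Msgn1 window (right), on separate scales. Polycomb bars are at 0 apart from Ring1b at 5 h of Wnt3a, and the wild-type H3K27ac bars at 24 h are 11.3 and 10.8 kb for Tbx6 and 2.66 and 3.43 kb for Msgn1.

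Put side by side, the elements that changed had different combinations of marks. M6 had H3K4me3 at 72 h in Wnt3KO cells, H3K27ac at 24 h in wild type and open chromatin at 48 h in wild type, and none of these at 0 h. In Wnt3KO cells M6 had no H3K27ac region at any time. T4 had H3K27ac at 24 h and open chromatin at 48 h in wild type, neither at 0 h, and H3K4me3 in no list. In Wnt3KO cells T4 had no H3K27ac region either. T3 had open chromatin at 0 and 48 h in wild type, H3K4me3 and H3K27ac at 0 and 72 h in Wnt3KO, and H3K27ac in wild type at 24 h and not at 0 h. No Polycomb region was listed in these 3 elements at any time. ATAC-seq was not made in Wnt3KO cells, so open chromatin and H3K4me3 were not measured in the same line in these comparisons. For M6 the H3K27ac and the H3K4me3 also came from different lines.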

How the data were processed

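The 32 deposited peak lists (23 ChIP-seq, 2 input, 7 ATAC-seq) were used, each of 1 library, in mm9 per the submitters' processing notes. Of the 57 samples, the 25 with 4C-seq were not used here. The tools in those notes, with no role or order, are MACS2 2.1.0 and SAMtools 0.1.19 for both assays, Bowtie 1.1.0 for ChIP-seq alone, and Bowtie2 2.1.0 with cutadapt 1.8.1 for ATAC-seq alone. For 4 wild-type ChIP-seq libraries (H3K27ac at 24 h and H3K4me3) no tool is given in the sources used here, and for no library is the background library given.

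The deposited fold enrichment is a ratio over local background from the authors' peak caller. Its −log10 p and −log10 q values were deposited by the authors too, with 5.00 as the lowest −log10 p of all lists. The deposited position of the summit, an offset from the peak's start, is also the authors'.

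Python 3.11.15 (numpy 2.4.6, scipy 1.17.1) was used to assign regions to windows and elements, with overlaps of at least 1 bp. Coverage is the summed length of regions in a window. It was compared as a description, since most groups have 1 library, with an exact permutation test only for E7.2 against E6.0. A region was called new or lost when it had no overlap in the other list. Percentages given beside such counts are over all regions of the list. The functions that join regions, sum covered length and find overlaps were tested on random intervals, and the other steps were not tested in this way. Elements named were those with a Polycomb region, with a mark or open chromatin at some times or stages and not others, or nearest each gene. Windows, gene lists and motifs were chosen with earlier results of these data known. The alternatives were a minimum −log10 q of 5, lists of equal length within each mark or assay, merging within 1 kb, leaving out each replicate and a replicate block.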

Additional observations from a re-analysis of the deposited data

Results flagged for a closer look

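A pair of wild-type H3K4me3 libraries entered no comparison because their labels contradict each other: the library titled 0 h is tagged with 72 h of CHIR99021, and the library titled Chiron72h is tagged IWP2. Both had signal in the windows, where the input libraries had none. In the Tbx6 window the library titled 0 h covered 8.62 kb and the library titled Chiron72h 9.24 kb. The T3 region was 637 bp (5.64-fold) in the library titled 0 h and 1336 bp (4.18-fold) in the library titled Chiron72h. In the Msgn1 window the library titled Chiron72h covered 2.15 kb, with regions of 345, 966 and 841 bp in M6, and the library titled 0 h had no region. Which condition each library holds was not settled here.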

How the results depend on the processing

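The 14 differences in covered length were recomputed under each alternative. Moves were set against the SD of a group with 2 libraries, not always a group of the comparison. For H3K27ac in Wnt3KO cells it was that of wild type at 24 h, and for ATAC-seq in EpiSCs that of E6.0 embryos. H3K4me3 had no such group, and its differences did not change. The Polycomb differences were 0 kb throughout. With a minimum −log10 q of 5, H3K27ac in Wnt3KO cells in the Tbx6 window went from 0.039 to 0.391 kb. That minimum moved no difference by more than the SD used. Lists of equal length moved 3 by more than that: H3K27ac in Wnt3KO cells in the Tbx6 window, 72 h minus 0 h, was 1.38 kb (0.039 kb with the lists as deposited), and H3K27ac in wild type, 24 h minus 0 h, was 5.44 kb in the Tbx6 window (6.45 kb) and 0.939 kb in the Msgn1 window (3.05 kb). Leaving out 1 library at a time gave −3.30 to −0.0845 kb for ATAC-seq E7.2 minus E6.0 in the Tbx6 window and −1.70 to 1.31 kb in the Msgn1 window.

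For the replicate block, E7.2 and E6.0 libraries were paired by number and the differences within pairs averaged, which gives the unpaired difference again by construction. The Tbx6 window gave −1.69 kb (exact sign-flip p = 0.5, the smallest that 2 pairs allow) and the Msgn1 window −0.196 kb (exact p = 1). With 2 pairs no call can be made under the block. Within pairs the differences were −2.45 and −0.936 kb for Tbx6 and −1.36 and 0.965 kb for Msgn1. The pairing of numbers follows the processing folders, not animals.

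Of 97 listings of a Tbx6 element in a library, 2 were lost at a −log10 q of 5 and 13 with lists of equal length, and of 39 listings of a Msgn1 element 2 and 13. The Ring1b region of T7, the H3K27ac region of T3 in Wnt3KO cells at 0 h and the ATAC-seq region of M8 in EpiSCs at 0 h were lost under both alternatives. Merging regions within 1 kb left 7 elements in the Tbx6 window and 8 in place of 11 in the Msgn1 window. The share of Polycomb regions of 0 h still listed later had no value, since there were none. Depth is unknown for every library, which limits any reading of regions that are not listed.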
